A study of Mus musculus with 6 samples.

Results

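Interleukins are secreted proteins through which immune and stromal cells signal to one another, and most act through receptors built of several chains. The genes described here are all those of the count table whose mouse symbol starts with Il and a digit, without Il6, Il7 and Il11, which makes 80 of 23420 genes. They comprise 34 ligands, 34 receptor chains, 2 accessory receptor chains, 3 antagonists, 3 decoy receptors, 2 receptor-like genes, an enzyme (Il4i1) and a chemokine symbol (Il8). Of the 80, 25 had at least 10 reads in at least 3 of the 6 libraries and are reported gene by gene, and 55 did not. Only 5 of the 34 ligands were among the 25.

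The RNA came from mesenchymal stromal cells (MSCs), the adherent fibroblast-like cells of bone marrow, grown from female C57BL/6 mice aged 6 to 8 weeks. All cells were kept in AMEM with 10% FBS, and at passage 5 they were transduced with a retrovirus that also carries an eGFP marker. Control cells (Ctl MSC, 3 libraries) received the empty construct. MSC-TPr cells (3 libraries) received β1i, β2i and β5t, the catalytic subunits of the thymoproteasome, the form of the proteasome found in cells of the thymic cortex. The genes of these subunits are Psmb9, Psmb10 and Psmb11. Nothing in the labels says whether the 3 libraries of a group came from separate cultures or transductions, so the p-values measure only the spread between these libraries.

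IL-1 family receptors signal through the adaptor Myd88 and the Irak kinases to NF-kB, and decoy receptors and soluble antagonists limit them. Most other interleukin receptors carry no kinase of their own and use JAK kinases and STAT factors, with feedback from the SOCS proteins. Several families share a chain: gp130 (Il6st) serves IL-6 and IL-11, the common gamma chain (Il2rg) serves IL-2 and IL-15, and Il10rb serves IL-10 and IL-22. MSCs are known as a source of IL-6 and of IL-1 receptor antagonist and respond to IL-1 and IL-17.

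The libraries held 16158756 to 22158887 reads on genes, and 3 reads, the limit that a count of 0 allows, corresponded to 0.139 to 0.181 CPM, the read count scaled to a common library size, here with TMM factors. Such limits cover counting error only. The libraries numbered 1 stood apart from the others of their label. On the first principal component, with 61.8% of the variance, Ctl MSC 1 (-38.2) lay beside MSC-TPr 2 and 3 (-41.6 and -40.3), and MSC-TPr 1 (36.7) lay beside Ctl MSC 2 and 3 (42.5 and 40.9). The summed level of 10 cell division genes followed the same split: Ctl MSC 1 had 1451 CPM, MSC-TPr 2 and 3 had 1275 and 1335 CPM, and the rest had 133 to 142 CPM. The 3 transduced genes did not separate the labels: Psmb9 had 0.554 to 3.38 CPM, Psmb10 had 8.38 to 27.8 CPM, and Psmb11 had 1 to 6 reads. Whether reads of the construct were counted on these genes was not tested. On the second principal component the labels did separate. The Ctl MSC libraries lay at -38.0, -16.9 and -16.2 there, and the MSC-TPr libraries at 36.7, 21.5 and 13.0. Whether the labels of the 2 libraries numbered 1 are right was not tested and is uncertain, and every value over 6 libraries rests on them. The groups are given by their labels throughout, with libraries 1, 2 and 3 in that order, and the tests are given over all 6 libraries and also over the 4 that remain without both libraries numbered 1. Over those 4 libraries the label coincides with the level of the cell division genes, 10 of 10 of which were called higher in MSC-TPr by edgeR with a median log2 ratio of 3.45, so the 2 cannot be told apart there. The summed level of 8 MSC markers was 728 to 3244 CPM, although the defining marker Thy1 had 0 to 1 reads. The 8 leukocyte markers summed to 1.90 to 14.2 CPM, with Cd68 at 0.789 to 14.2 CPM and Ptprc and Cd3e at or near 0. Since bulk RNA was sequenced, fewer cells with a transcript and less of it per cell cannot be told apart.

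**Figure D1:**
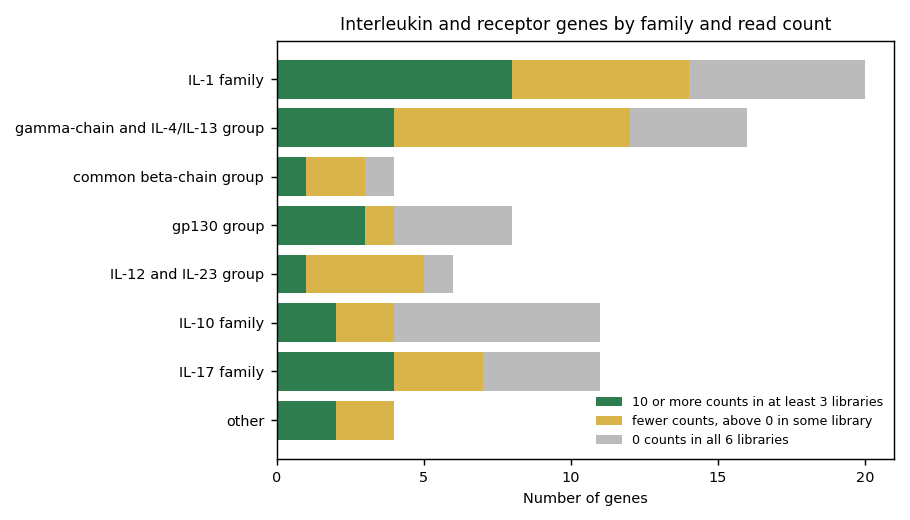
Number of interleukin and receptor genes in each family (x axis), split into those with 10 or more counts in at least 3 libraries (green), those with fewer counts (yellow) and those at 0 in all 6 libraries (grey). The IL-1 family holds 8 of the 25 genes in green, and 7 of the 11 genes of the IL-10 family are at 0.

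Of the 55 genes under the count limit, 27 had no read in any library, 21 had a highest count between 1 and 9, and 7 reached 10 reads in 1 or 2 libraries. Genes with no read at all included the ligands Il1b, Il2, Il4, Il9, Il21, Il3, Il27, Il31, Il12a, Il10, Il20, Il22, Il24, Il17a, Il17b, Il17f and Il25. IL-1β is the main inflammatory ligand of the Il1r1 receptor, and Il1a, the other one, had at most 1 read in a library. Il33, the ligand of Il1rl1, had 10, 3 and 3 reads in Ctl MSC and 9, 7 and 2 reads in MSC-TPr. No family was silent throughout, but in the common beta-chain, gp130, IL-12 and IL-10 groups no ligand among the members passed the limit, and the members that did were receptor chains. In the gp130 group this concerns Il27 and Il31 alone, since Il6 and Il11 were not among the genes chosen, and Il6 itself had 10, 5 and 3 reads in Ctl MSC and 6, 16 and 16 reads in MSC-TPr. Of the 11 genes of the IL-10 family, Il10rb and Il20rb passed. Il20ra did not, with 58, 3 and 6 reads in Ctl MSC and 1, 8 and 38 reads in MSC-TPr. Il10ra, the chain that binds IL-10, was at 0 in every library. Receptor chains that define lymphocyte responses were likewise near or at 0. Il2rg, the common gamma chain, had 1 to 5 reads and Il7r had 0 to 4. Il2rb, a chain shared by the IL-2 and IL-15 receptors, had 3 to 13 reads.

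Promoter windows are printed for 4 receptor genes: Il1rl1, which has the most reads and varied most between libraries, and Il1rl2, Il11ra1 and Il3ra, which were lower in every MSC-TPr library. They run from 250 bases before to 50 bases after a RefSeq transcript start (GRCm38.p6, which is mm10), 5′ to 3′ on the gene's strand, and capitals mark CpG dinucleotides. Il1rl1 has 2 windows (chr1:40429320-40429619 and chr1:40439379-40439678, plus strand).
Il1rl1 window 1: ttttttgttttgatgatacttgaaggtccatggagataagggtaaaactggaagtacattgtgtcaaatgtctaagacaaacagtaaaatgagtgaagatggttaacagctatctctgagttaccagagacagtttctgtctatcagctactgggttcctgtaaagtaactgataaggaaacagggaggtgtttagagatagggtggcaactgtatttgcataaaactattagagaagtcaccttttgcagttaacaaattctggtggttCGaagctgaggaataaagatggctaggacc
Il1rl1 window 2: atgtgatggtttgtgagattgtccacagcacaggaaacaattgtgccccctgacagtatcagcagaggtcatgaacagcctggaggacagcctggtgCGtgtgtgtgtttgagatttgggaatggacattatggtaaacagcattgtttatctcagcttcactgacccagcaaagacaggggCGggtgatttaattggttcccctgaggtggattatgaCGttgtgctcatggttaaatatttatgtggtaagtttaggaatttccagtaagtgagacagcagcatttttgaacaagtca
Il1rl2 (chr1:40324339-40324638, plus strand): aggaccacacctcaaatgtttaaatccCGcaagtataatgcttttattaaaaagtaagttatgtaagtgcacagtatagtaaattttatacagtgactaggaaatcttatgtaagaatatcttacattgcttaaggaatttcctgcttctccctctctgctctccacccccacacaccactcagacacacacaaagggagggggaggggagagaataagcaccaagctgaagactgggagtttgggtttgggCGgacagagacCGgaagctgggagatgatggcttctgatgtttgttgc
Il11ra1 window 1 (chr4:41760193-41760492, plus strand): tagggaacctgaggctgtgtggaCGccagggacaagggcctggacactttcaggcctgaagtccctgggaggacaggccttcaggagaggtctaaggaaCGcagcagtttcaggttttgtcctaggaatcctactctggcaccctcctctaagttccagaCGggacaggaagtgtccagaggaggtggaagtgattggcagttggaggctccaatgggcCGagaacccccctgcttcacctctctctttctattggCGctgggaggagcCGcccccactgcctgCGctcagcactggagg
Il11ra1 window 2 (chr4:41762060-41762359, plus strand): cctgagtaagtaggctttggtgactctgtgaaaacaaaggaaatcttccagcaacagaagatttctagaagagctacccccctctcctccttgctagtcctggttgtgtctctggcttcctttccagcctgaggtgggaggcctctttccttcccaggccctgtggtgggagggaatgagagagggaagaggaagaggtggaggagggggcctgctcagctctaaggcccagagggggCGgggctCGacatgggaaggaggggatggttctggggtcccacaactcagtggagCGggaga
Il3ra (chr14:14346245-14346544, plus strand): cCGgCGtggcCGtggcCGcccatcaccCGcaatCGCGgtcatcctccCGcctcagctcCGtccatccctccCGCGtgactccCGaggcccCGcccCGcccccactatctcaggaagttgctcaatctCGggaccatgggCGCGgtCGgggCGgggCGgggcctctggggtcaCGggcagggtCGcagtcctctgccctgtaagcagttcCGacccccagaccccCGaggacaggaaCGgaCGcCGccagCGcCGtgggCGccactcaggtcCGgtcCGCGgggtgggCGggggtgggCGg

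The Il1rl1 windows held 1 and 3 CpGs, the Il1rl2 window 3, the Il11ra1 windows 7 and 3, and the Il3ra window 35. Il1rap and Il6st, also lower in every MSC-TPr library, had windows with 33 CpGs each, which are not printed. RefSeq windows were found for 20 of the 25 genes, 28 windows in all, and held a median of 5.5 CpGs against 7 over 32851 promoters (quartiles 3 and 20). Both strands were searched for TTCNNNGAA (the GAS element bound by STAT factors), the interferon-stimulated response element, TGANTCA (the AP-1 site), TATAAA and the NF-kB site. GAS occurred in 3.57% of the 28 windows and 8.30% of all promoters, the interferon element in 3.57% and 3.44%, the AP-1 site in 10.7% and 7.81%, TATAAA in 10.7% and 13.6%, and the NF-kB site in 10.7% and 8.46%. Of the printed windows, the Il1rl2 window alone had a match, a TATAAA on the strand opposite to the one printed, in the stretch that begins 166 bases before the transcript start.

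**Figure D2:**
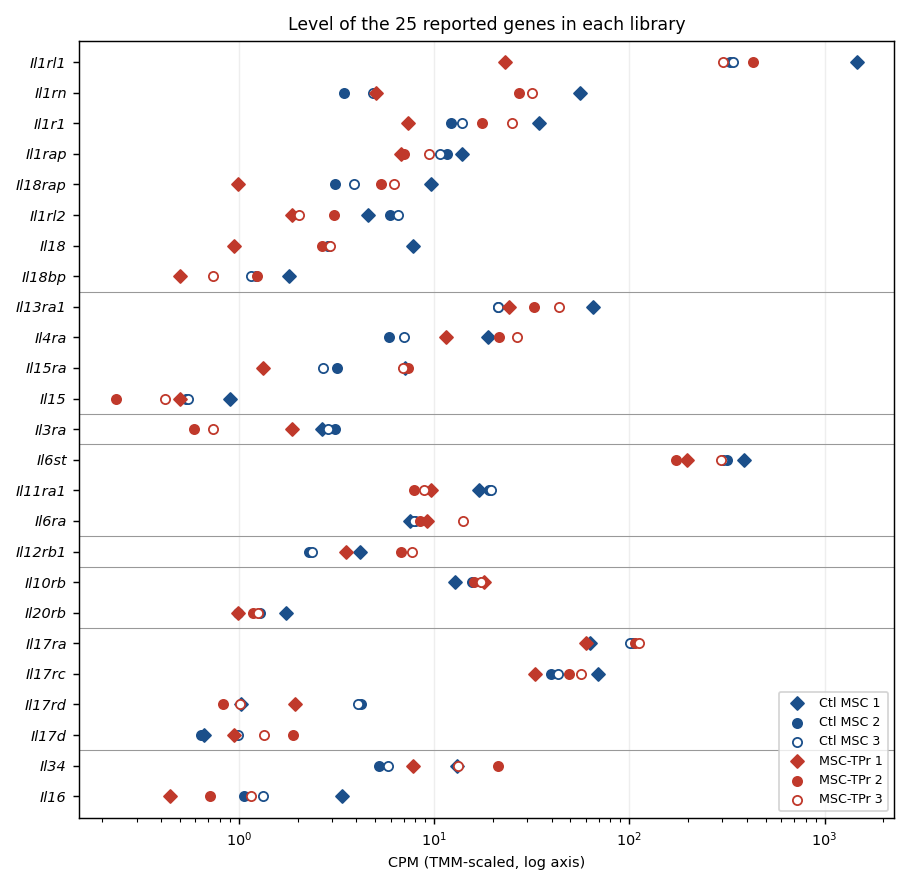
Level of the 25 genes with 10 or more counts in at least 3 libraries (x axis, CPM on a log scale, 1 point per library). Il1rl1 spans 23.0 to 1472 CPM, while Il11ra1 has every Ctl MSC library above every MSC-TPr library.

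A few receptor genes held most of the reads. Counts per gene do not tell apart transcripts that start at different sites, such as the 2 windows of Il1rl1. Il1rl1, the ST2 receptor of IL-33, took 43.3% of the pooled reads on the 80 genes (5.33 to 64.5% in a library), Il6st took 26.1% (17 to 45.7%) and Il17ra, the signalling chain of the IL-17 receptors, took 8.68% (2.77 to 14%). Per kilobase of exon, which allows levels to be compared between genes, Il1rl1 averaged 69.9 CPM, Il6st 25.1, Il17rc 18.1, Il17ra 10.6, Il13ra1 9.37, Il34 5.65 and Il10rb 4.26. These orders are of means, and Il1rl1 ranged from 3.34 to 214 CPM per kilobase between libraries, so it did not stand above Il6st in every library. Il16 was the lowest of the 25 at 0.171 CPM per kilobase.

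Over all 6 libraries, no interleukin or receptor gene passed the test between the labels. The test was edgeR's quasi-likelihood test with Benjamini-Hochberg adjustment over all genes, and a gene was called where the adjusted p was below 0.05 and the log2 ratio of MSC-TPr to control libraries was 0.5 or more in either direction. It called 0 of the 24 members tested, against 51 of 11974 genes (0.426%). At an unadjusted p under 0.05 there were 6 of 24, against 15.0% of all genes, with Il11ra1, Il1rl2, Il3ra, Il1rap and Il6st lower in MSC-TPr and Il12rb1 higher. DESeq2 called 2 members lower, Il11ra1 and Il1rl2, of 33 with an adjusted p, against 5.28% of all genes. Without both libraries numbered 1, edgeR called 8 of the same 24 members higher in MSC-TPr (33.3%, against 20.6% of all genes) and 4 lower (16.7%, against 19.4%). The higher ones were Il1rn, Il4ra, Il12rb1, Il34, Il15ra, Il13ra1, Il18rap and Il1r1, and the lower ones Il11ra1, Il1rl2, Il3ra and Il17rd. With the cell division genes as a covariate over 6 libraries, none of the 8 was called higher: Il1r1 was called lower, Il1rn had a log2 ratio of -0.33, and Il12rb1 and Il4ra had log2 ratios of 0.74 and 0.62 (adjusted p = 0.0588 and 0.0612 by edgeR). By the levels themselves, the groups did not overlap over 6 libraries for 5 of the 24 genes tested that were lower in MSC-TPr (20.8%, against 12.1% of all genes) and for 1 that was higher (4.17%, against 10.6%). The median log2 ratio of the members was -0.25 over 6 libraries and 0.12 over 4, beside 0.01 and -0.002 over all genes tested.

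**Figure D3:**
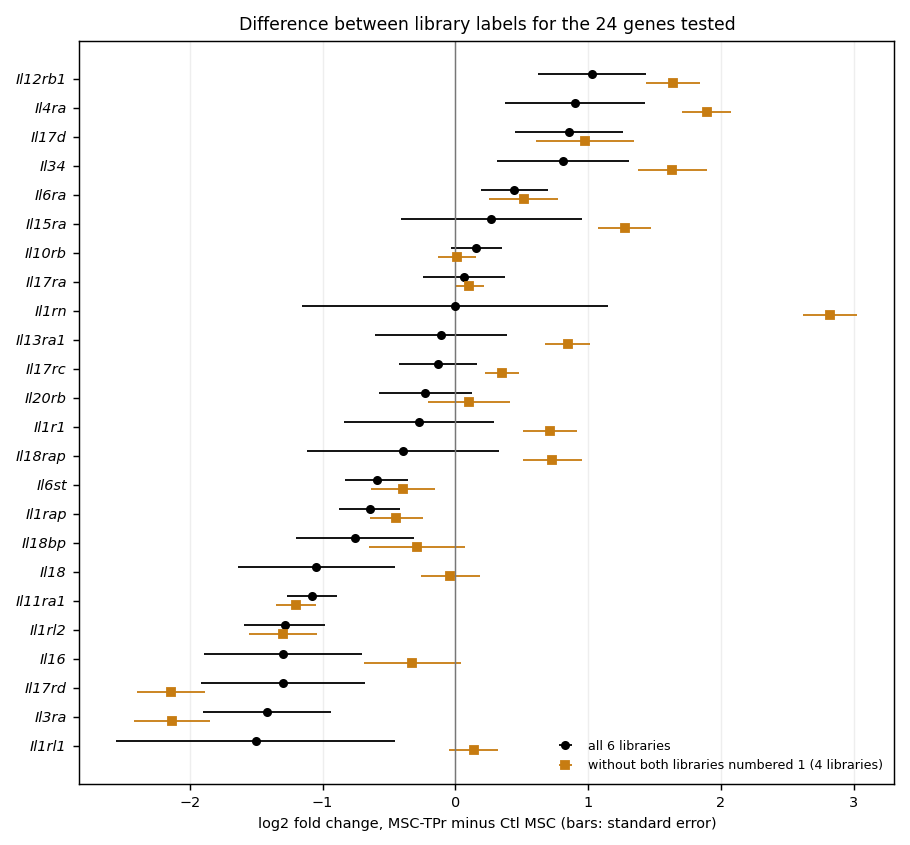
Log2 fold change (x axis, MSC-TPr minus Ctl MSC, bars are 1 standard error) of the 24 genes tested, over all 6 libraries (black circles) and without both libraries numbered 1 (orange squares). Il1rn moves from -0.004 to 2.82 between the fits, and Il11ra1 from -1.08 to -1.20.

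Among the gp130 receptors, the IL-11 receptor chain was the member with the smallest p. Il11ra1 (chr4:41699989-41769474, plus strand, mm10) encodes the chain that binds IL-11. It stood at 17.1, 19.2 and 19.6 CPM in controls and at 9.63, 7.87 and 8.91 CPM in the MSC-TPr libraries. Every MSC-TPr library lay below every Ctl MSC library, and the libraries numbered 1 lay with the others of their label. The mean was 18.6 ± 1.33 CPM (SD, n = 3) in controls and 8.80 ± 0.887 CPM (SD, n = 3) in MSC-TPr, a 2.11-fold difference. In the fit, the log2 ratio was -1.08 (standard error 0.186, adjusted p = 0.0774 by edgeR), which did not pass the threshold over all 6 libraries. It was -1.20 (standard error 0.149, adjusted p = 0.00199 by edgeR) over 4 libraries, and DESeq2 gave an adjusted p of 5.14e-05 over 6. With any 1 library omitted, the log2 ratio stayed between -1.15 and -1.0. Il11ra2, a near copy of the gene, had 0 reads in all libraries, and 8 bases of Il11ra1 exon overlap Ccl27a on the other strand. How reads were shared between such copies was not tested.

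Il6st encodes gp130 itself, the signalling chain that IL-6 and IL-11 share. Its levels were 387, 316 and 300.4 CPM in controls and 197, 174 and 294 CPM in MSC-TPr. All 3 MSC-TPr libraries lay below the lowest control library, though MSC-TPr 3 was close to Ctl MSC 3. The resulting log2 ratio was -0.59 (standard error 0.238, adjusted p = 0.316 by edgeR) over 6 libraries and -0.39 (standard error 0.242, adjusted p = 0.225 by edgeR) over 4. Il6ra, the chain that binds IL-6, was the one member whose libraries were all higher in MSC-TPr. It had 7.49, 8.01 and 7.89 CPM in controls and 9.25, 8.52 and 14.1 CPM in MSC-TPr, with a log2 ratio of 0.45 (standard error 0.254, adjusted p = 0.467 by edgeR) over 6 libraries and 0.52 (standard error 0.260, adjusted p = 0.150 by edgeR) over 4. The other receptor chains of the group were at or near 0: Il31ra had no read and Il27ra had 1 to 5.

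Of the IL-1 family, 8 of 20 members passed the count limit: 3 receptors, both accessory chains, 2 antagonists and the ligand Il18. Its most abundant member and the one that varied most was Il1rl1, which had 1472, 327 and 339 CPM in controls and 23.0, 429.8 and 301 CPM in MSC-TPr. Ctl MSC 1 was the highest and MSC-TPr 1 the lowest library, with 63.9 times between them, while the other 4 libraries lay between 301 and 429.8 CPM. Its log2 ratio was -1.50 with an SE of 1.05 over 6 libraries (adjusted p = 0.547 by edgeR) and 0.14 with an SE of 0.185 over 4 (adjusted p = 0.570 by edgeR). Without Il1rl1, the summed level of the 80 genes was 809.5, 596 and 587 CPM in controls and 409 to 691 CPM in MSC-TPr, and with it 2281, 923 and 926 CPM and 432 to 992 CPM.

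Il1rl1 was not alone in this order. Ctl MSC 1 was the highest and MSC-TPr 1 the lowest library for 8 of the 24 members tested (33.3%), Il1rl1, Il1r1, Il1rap, Il18rap, Il18, Il18bp, Il16 and Il17rc, against 1326 of 11974 genes (11.1%). Of these 8, 6 belong to the IL-1 family. Both libraries also differed from the others of their label in the cell division genes. There MSC-TPr 1 lay with Ctl MSC 2 and 3, and Ctl MSC 1 with MSC-TPr 2 and 3. Whether the order above is linked to the level of the cell division genes was not tested. With the mean level of those genes as a covariate over 6 libraries, edgeR called 8 of the 24 members, all lower in MSC-TPr, against 7.29% of all genes called lower. These were Il1rl1, Il1rl2, Il1r1, Il1rap, Il18, Il11ra1, Il16 and Il3ra.

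Il1rl2 is the receptor of the IL-36 cytokines. It had 4.59, 5.98 and 6.51 CPM in controls and 1.88, 3.08 and 2.04 CPM in MSC-TPr, and the groups did not overlap. Between the labels the log2 ratio was -1.29 (standard error 0.306, adjusted p = 0.154 by edgeR) over 6 libraries, where DESeq2 gave an adjusted p of 0.00969, and -1.30 (standard error 0.255, adjusted p = 0.00920 by edgeR) over 4. Il1rap is the accessory chain with which Il1r1, Il1rl1 and Il1rl2 all signal. It was 13.9, 11.7 and 10.8 CPM in controls and 6.81, 6.98 and 9.42 CPM in MSC-TPr, again without overlap, and its log2 ratio was -0.65 (standard error 0.230, adjusted p = 0.269 by edgeR) over 6 libraries and -0.45 (standard error 0.199, adjusted p = 0.114 by edgeR) over 4.

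Il1r1, the signalling receptor of IL-1, overlapped between the labels. Its levels were 34.4, 12.2 and 14.0 CPM in controls and 7.36, 17.6 and 25 CPM in MSC-TPr. Its log2 ratio was -0.28 (standard error 0.563, adjusted p = 0.858 by edgeR) over 6 libraries and 0.71 (standard error 0.205, adjusted p = 0.0333 by edgeR) over 4, so the direction turned with the libraries numbered 1. Il18rap, the accessory chain of the IL-18 receptor, had 9.61, 3.10 and 3.92 CPM in controls and 0.997, 5.32 and 6.26 CPM in MSC-TPr. It turned in the same way, from -0.40 to 0.73 (adjusted p = 0.839 over 6 libraries and 0.0390 over 4 by edgeR).

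Il1rn encodes the secreted antagonist that blocks Il1r1. It had 55.7, 3.47 and 4.85 CPM in controls and 5.04, 27.1 and 31.6 CPM in MSC-TPr. MSC-TPr 1 lay with Ctl MSC 2 and 3, between 3.47 and 5.04 CPM, and Ctl MSC 1 lay above MSC-TPr 2 and 3. Over 6 libraries the log2 ratio was -0.004 (standard error 1.15, adjusted p = 0.999 by edgeR), and over 4 it was 2.82 (standard error 0.206, adjusted p = 0.000342 by edgeR), or 7.07-fold. That was the largest difference over 4 libraries among the 24 members, and over 6 libraries no difference was detectable against its own spread.

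Il18, a ligand made as an inactive precursor and cut by caspase-1, had 7.79, 2.88 and 2.87 CPM in controls and 0.941, 2.66 and 2.92 CPM in MSC-TPr. The 4 libraries not numbered 1 lay between 2.66 and 2.92 CPM, and the log2 ratio was -1.05 (standard error 0.589, adjusted p = 0.459 by edgeR) over 6 and -0.04 (standard error 0.222, adjusted p = 0.904 by edgeR) over 4. Il18bp, which binds and blocks IL-18, ranged from 0.498 to 1.81 CPM and was not called over 6 or 4 libraries. Il18r1, the chain that binds IL-18, had 0 to 1 reads in each library.

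The genes of 6 IL-1 family receptors lie in a row on the plus strand of chromosome 1 (mm10). From Il1r2 (chr1:40074079-40125231) they run through Il1r1 (chr1:40225080-40317257), Il1rl2 (chr1:40324610-40367562), Il1rl1 (chr1:40429570-40465415) and Il18r1 (chr1:40465552-40500854) to Il18rap (chr1:40515362-40551705). Reads were distributed unevenly along the row. Il1r2, the decoy receptor of IL-1, had 1 read in all, and Il18r1 had at most 1 read in a library, although it starts just past the end of Il1rl1, which had 416 to 24356 reads. Il1r1 had 133 to 569 reads, Il1rl2 had 34 to 118 and Il18rap had 18 to 159. MSC-TPr 1 was the lowest library for all 4 genes with reads. Ctl MSC 1 was the highest for Il1r1, Il1rl1 and Il18rap, but was the lowest Ctl MSC library for Il1rl2.

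**Figure D4:**
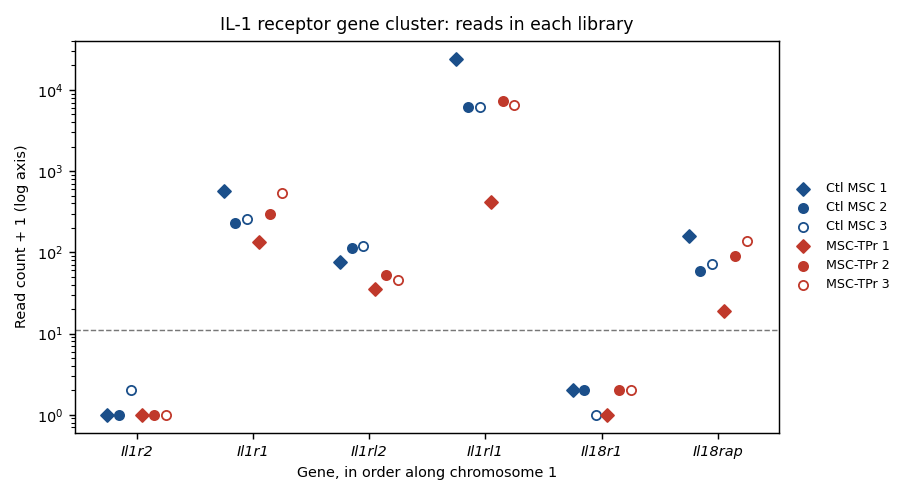
Read count plus 1 (y axis, log scale) of the 6 IL-1 family receptor genes in their order along chromosome 1, with 1 point per library and the limit of 10 counts as a dashed line. Il1rl1 reaches 24356 reads between Il1rl2, at 34 to 118 reads, and Il18r1, at 0 to 1.

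Chains that bind IL-4, IL-13 and IL-15 were present without Il2rg. Il4ra pairs with Il13ra1 to form the receptor through which non-blood cells respond to IL-4 and IL-13. It had 19.0, 5.88 and 7.06 CPM in controls and 11.6, 21.4 and 26.5 CPM in MSC-TPr, with Ctl MSC 1 inside the range of the MSC-TPr libraries. In the fit, the log2 ratio was 0.90 (standard error 0.530, adjusted p = 0.481 by edgeR) over 6 libraries and 1.89 (standard error 0.185, adjusted p = 0.000899 by edgeR) over 4. Il13ra1 had 65.6, 21.3 and 21.4 CPM in controls and 24.1, 32.6 and 43.9 CPM in MSC-TPr. Its direction turned, from -0.11 (standard error 0.497, adjusted p = 0.940 by edgeR) over 6 libraries to 0.85 (standard error 0.171, adjusted p = 0.0101 by edgeR) over 4. Il13ra2, the decoy receptor of IL-13, had 6 to 24 reads.

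Il15ra, which presents IL-15 to neighbouring cells, had 7.07, 3.21 and 2.70 CPM in controls and 1.33, 7.39 and 6.91 CPM in MSC-TPr, with a log2 ratio of 0.27 (adjusted p = 0.886 by edgeR) over 6 libraries and 1.28 (standard error 0.202, adjusted p = 0.00438 by edgeR) over 4. Its ligand Il15 was at the edge of detection and was left out of both fits by the filter on low counts. Il15 had 15, 10 and 10 reads in Ctl MSC and 9, 4 and 9 reads in MSC-TPr. Since it reached the limit of 10 reads through the control libraries alone, no difference is read from these counts.

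Il3ra binds IL-3, a growth factor of blood cells, and had 2.66, 3.10 and 2.87 CPM in controls and 1.88, 0.592 and 0.742 CPM in MSC-TPr. All 3 MSC-TPr libraries were lower than every control library. The resulting log2 ratio was -1.42 (standard error 0.482, adjusted p = 0.251 by edgeR) over 6 libraries and -2.13 (standard error 0.286, adjusted p = 0.00255 by edgeR) over 4. Its signalling partner Csf2rb had 1 read in each MSC-TPr library and 3 to 16 reads in Ctl MSC.

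Il12rb1, the chain that IL-12 and IL-23 receptors share, was the one member of its group above the limit. It had 4.17, 2.30 and 2.37 CPM in controls and 3.54, 6.8 and 7.70 CPM in MSC-TPr, and only MSC-TPr 1 and Ctl MSC 1 crossed. Its log2 ratio was 1.03 (standard error 0.406, adjusted p = 0.307 by edgeR) over 6 libraries and 1.64 (standard error 0.203, adjusted p = 0.00198 by edgeR) over 4. Il12rb2 and Il23r, the chains specific to each receptor, were under the limit. Il23a, a subunit of IL-23, had 3, 17 and 10 reads in Ctl MSC and 2, 2 and 5 reads in MSC-TPr. It passed the filter of the fit over 4 libraries, but only through its control counts, so its result there is not counted.

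Of the IL-17 receptors, Il17ra, Il17rc and Il17rd passed the limit, and the first of these was the most abundant in reads. Il17ra had 63.1, 104 and 101 CPM in controls and 60.4, 108 and 113 CPM in MSC-TPr, with both libraries numbered 1 lowest. Its log2 ratio was 0.06 (standard error 0.306, adjusted p = 0.940 by edgeR) over 6 libraries and 0.11 (standard error 0.108, adjusted p = 0.457 by edgeR) over 4. Il17rc, its partner in the receptor of IL-17A and IL-17F, had 68.8, 40 and 43.2 CPM in controls and 32.8, 48.9 and 56.9 CPM in MSC-TPr. Its log2 ratio was -0.13 (standard error 0.295, adjusted p = 0.869 by edgeR) over 6 libraries and 0.35 (standard error 0.131, adjusted p = 0.0714 by edgeR) over 4. Il17rd, a family member that also restrains FGF signalling, had 1.03, 4.22 and 4.08 CPM in controls and 1.94, 0.828 and 1.02 CPM in MSC-TPr. Ctl MSC 1 lay beside MSC-TPr 2 and 3 at the low end. Between the labels the log2 ratio was -1.30 (standard error 0.615, adjusted p = 0.383 by edgeR) over 6 libraries and -2.15 (standard error 0.257, adjusted p = 0.00177 by edgeR) over 4. Of the 6 IL-17 ligands, Il17d was the one above the limit, at 0.641 to 1.89 CPM.

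Il34, a ligand of the macrophage growth factor receptor Csf1r, had the highest level per kilobase of the 5 ligands. It had 13.1, 5.23 and 5.85 CPM in controls and 7.81, 21.2 and 13.3 CPM in MSC-TPr, with Ctl MSC 1 and MSC-TPr 3 almost level. In the fit, the log2 ratio was 0.81 (standard error 0.496, adjusted p = 0.495 by edgeR) over 6 libraries and 1.64 (standard error 0.260, adjusted p = 0.00442 by edgeR) over 4. Il16, a chemoattractant of CD4 cells, had 3.38, 1.07 and 1.32 CPM in controls and 0.443, 0.710 and 1.16 CPM in MSC-TPr, and 1202 bases of its exons overlap Stard5 on the other strand. Its log2 ratio was -1.30 (standard error 0.594, adjusted p = 0.369 by edgeR) over 6 libraries and -0.32 (standard error 0.366, adjusted p = 0.496 by edgeR) over 4. Il10rb had 12.8, 15.7 and 17.6 CPM in controls and 18.0, 16.0 and 17.4 CPM in MSC-TPr, the smallest spread of the 25 genes at 1.41 times from lowest to highest, with a log2 ratio of 0.16 (standard error 0.196, adjusted p = 0.754 by edgeR) over 6 libraries and 0.01 (standard error 0.143, adjusted p = 0.961 by edgeR) over 4. Il20rb, a chain of the IL-20 receptors, ranged from 0.993 to 1.75 CPM.

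Genes that act beside or after these receptors were taken from 5 lists. Over 6 libraries edgeR called 1 of 49 list genes tested (2.04%, against 0.426% of all genes), and DESeq2 called 7 of 54 with an adjusted p (13%, against 5.28%), among them Irak3, Stat2, P2rx7, Gsdmd, Casp4 and Lifr. Over 4 libraries edgeR called 10 of 50 higher and 10 of 50 lower, 20% each way, close to the shares of all genes (20.6% and 19.4%). Nlrp3 and Csf1r, among those called higher, passed the filter there only through their MSC-TPr counts. Their calls are therefore not read as a result, although the share called higher includes them. At an unadjusted p under 0.05 by edgeR over 6 libraries there were 12 of 49 (24.5%, against 15.0% of all genes): 2 JAK and STAT genes lower, 2 feedback genes higher, 1 adaptor higher and 1 lower, 4 processing genes lower, and 1 of the other chains higher and 1 lower. Of 10 JAK and STAT genes tested, edgeR called none over 6 libraries. Stat2, which carries interferon signals, had 82.8, 55.8 and 50.7 CPM in controls and 24.8, 17.5 and 21.6 CPM in MSC-TPr, with a log2 ratio of -1.57 (standard error 0.249, adjusted p = 0.0731 by edgeR) over 6 libraries and -1.44 (standard error 0.149, adjusted p = 0.00109 by edgeR) over 4. DESeq2 gave Stat2 an adjusted p of 2e-05 over 6. Stat6 and Stat3, the factors of IL-4 and of gp130, had log2 ratios of 0.01 and -0.27 over 6 libraries and -0.03 and 0.15 over 4, none of them called. The median of the list was -0.22 over 6 libraries and -0.27 over 4, where 3 genes were called lower.

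Of 11 SOCS and other feedback genes, edgeR and DESeq2 called none over 6 libraries. Among the 11, 3 lay wholly higher in MSC-TPr (Socs2, Socs4 and Socs5), against 10.6% of all genes, and 1 wholly lower (Pias3), against 12.1%. Their median was -0.12 over 6 libraries and 0.03 over 4. Socs2 had 17.0, 53.6 and 55.8 CPM in controls and 86.0, 106 and 82.0 CPM in MSC-TPr, with a log2 ratio of 1.12 (standard error 0.434, adjusted p = 0.302 by edgeR) over 6 libraries and 0.79 (standard error 0.154, adjusted p = 0.00908 by edgeR) over 4. Over 4 libraries Socs5 was also called higher, with a log2 ratio of 0.71 (adjusted p = 0.00401 by edgeR). Socs7 was called lower there, with a log2 ratio of -0.60 (adjusted p = 0.00808 by edgeR). That made 2 of the 11 called higher, against 20.6% of all genes, and 1 lower, against 19.4%. Of 13 adaptors of the IL-1 and IL-17 receptors, edgeR called 1 over 6 libraries, and the median was -0.03 over 6 libraries and 0.01 over 4. Irak3 restrains signalling from IL-1 and Toll-like receptors. It had 8.46, 6.41 and 7.23 CPM in controls and 0.720, 0.710 and 1.02 CPM in MSC-TPr, so every MSC-TPr library was lower, including the library numbered 1. Irak3 fell with a log2 ratio of -3.16 (standard error 0.294, adjusted p = 0.0170 by edgeR) over 6 libraries and -2.94 (standard error 0.265, adjusted p = 0.000683 by edgeR) over 4. Irak3 was not called with some libraries left out: its adjusted p by edgeR was 0.0975 without Ctl MSC 2, 0.123 without Ctl MSC 3, 0.155 without MSC-TPr 2 and 0.0996 without MSC-TPr 3, while the log2 ratio stayed between -3.35 and -3.04. Its exons overlap Tmbim4 on the other strand over 192 bases. Tollip, another inhibitor, had 57.1, 81.2 and 87.1 CPM in controls and 143, 110.1 and 112 CPM in MSC-TPr, with a log2 ratio of 0.70 (standard error 0.213, adjusted p = 0.220 by edgeR) over 6 libraries and 0.40 (standard error 0.110, adjusted p = 0.0279 by edgeR) over 4, which is under the size required for a call. Myd88, Irak1 and Irak4 had log2 ratios of -0.36, 0.15 and -0.26 over 6 libraries and were called in neither fit.

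Of 10 genes that process and release IL-1 family cytokines, 5 passed the filter. Over 6 libraries edgeR called none of the 5. DESeq2 called 3 lower (P2rx7, Gsdmd and Casp4), where it called 5.28% of all genes either way. The groups of 4 of the 5 did not overlap, all lower in MSC-TPr, against 12.1% of all genes. The median of the 5 was -1.22 over 6 libraries. P2rx7, the ATP-gated channel that triggers IL-1 release, had 17.6, 33.2 and 27.3 CPM in controls and 7.97, 7.75 and 10.7 CPM in MSC-TPr. For P2rx7 the log2 ratio was -1.56 (standard error 0.293, adjusted p = 0.0926 by edgeR and 0.000269 by DESeq2) over 6 libraries and -1.70 (standard error 0.202, adjusted p = 0.00172 by edgeR) over 4. Gsdmd, which forms the pore, had 20.4, 13.7 and 12.6 CPM in controls and 5.09, 7.34 and 7.47 CPM in MSC-TPr. The ratio of Gsdmd was -1.23 on the log2 scale (standard error 0.282, adjusted p = 0.141 by edgeR and 0.00582 by DESeq2) over 6 libraries and -0.83 (standard error 0.156, adjusted p = 0.00800 by edgeR) over 4. Casp4, an inflammatory caspase that cuts Gsdmd, had 17.4, 15.3 and 15.9 CPM in controls and 9.80, 5.62 and 5.47 CPM in MSC-TPr. The ratio of Casp4 was -1.22 on the log2 scale (standard error 0.284, adjusted p = 0.147 by edgeR and 0.00769 by DESeq2) over 6 libraries and -1.49 (standard error 0.155, adjusted p = 0.00111 by edgeR) over 4. Casp1 had 21.5, 10.5 and 11 CPM in controls and 6.53, 7.63 and 8.26 CPM in MSC-TPr. For Casp1 the log2 ratio was -0.94 (standard error 0.331, adjusted p = 0.265 by edgeR) over 6 libraries and -0.44 (standard error 0.159, adjusted p = 0.0675 by edgeR) over 4. Pycard, the adaptor that joins sensors to caspase-1, had 0 to 2 reads, and Nlrp3 had 2 to 21. Without both libraries numbered 1, 4 of 6 genes tested were called lower (against 19.4% of all genes) and 1 higher (against 20.6%), with a median of -0.68. The higher one was Nlrp3, which passed the filter only through its MSC-TPr counts. Its call is not read as a result, and the median over 4 libraries includes it.

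**Figure D5:**
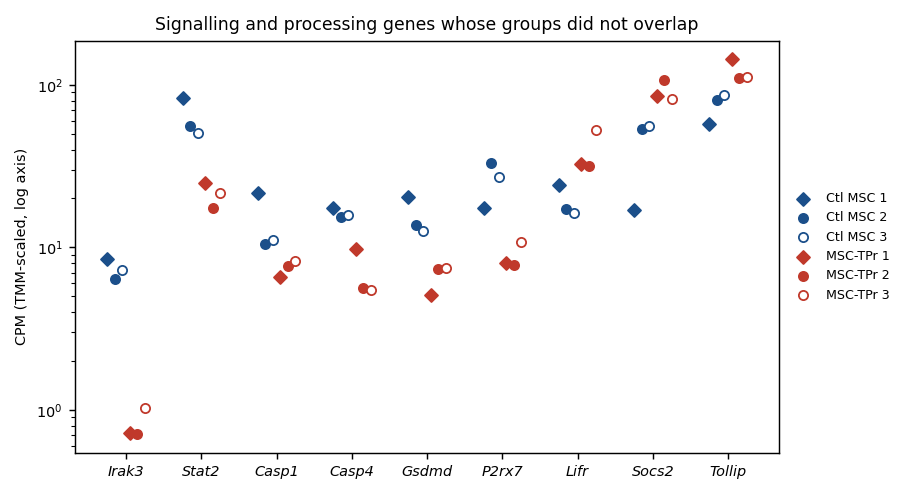
Level (y axis, CPM on a log scale, 1 point per library) of signalling and processing genes whose Ctl MSC and MSC-TPr libraries did not overlap. Irak3 lies at 6.41 to 8.46 CPM in the control libraries and at 0.710 to 1.02 CPM in MSC-TPr.

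Of 10 tested genes for other chains and ligands of the same receptor families, edgeR called none over 6 libraries and DESeq2 called Lifr, and the median was 0.30. Over 4 libraries 6 were called higher (against 20.6% of all genes) and 1 lower (against 19.4%), with a median of 0.83. The 6 and the median include Csf1r, which passed the filter there only through its MSC-TPr counts. Its call is not read as a result. Lifr, which pairs with gp130 for LIF, had 24.1, 17.2 and 16.3 CPM in controls and 32.6, 31.6 and 52.7 CPM in MSC-TPr, opposite in direction to Il6st, with a log2 ratio of 1.02 (standard error 0.279, adjusted p = 0.187 by edgeR and 0.0311 by DESeq2) over 6 libraries and 1.34 (standard error 0.249, adjusted p = 0.00775 by edgeR) over 4. Csf2ra, a further partner of Csf2rb, had 1.63, 2.03 and 1.71 CPM in controls and 0.831, 0.887 and 0.881 CPM in MSC-TPr, with a log2 ratio of -1.04 (standard error 0.297, adjusted p = 0.201 by edgeR) over 6 libraries and -1.07 (standard error 0.292, adjusted p = 0.0275 by edgeR) over 4. Csf1r, the receptor of Il34, had 12, 1 and 1 reads in Ctl MSC and 0, 13 and 18 reads in MSC-TPr. Its reads came mainly from the 3 libraries with the highest level of cell division genes. Of its exons, 873 bases overlap Hmgxb3 on the other strand. Whether reads of Hmgxb3 were counted on Csf1r was not tested.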

How the data were processed

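Poly(A) RNA was sequenced in pairs on a HiSeq2000 from stranded libraries. Per the labels and the study's methods, the authors processed reads with CASAVA 1.8.2, Trimmomatic 0.35 and TopHat2 2.1.0 (mm10), and counted them per gene with HTSeq-count; the strand setting of the counting is not given in the sources used here. The deposited values are raw counts per gene for 6 libraries, 3 a group, each library being matched to its group by its label. Of the counted read pairs, 79.2 to 86.2% fell on genes, and the rows for the rest were left out.

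Counts were tested with edgeR 4.0.16 (R 4.3.3, TMM, filterByExpr, quasi-likelihood, label as the only term), adjusted by Benjamini-Hochberg over all genes that passed the filter. Calls needed an adjusted p below 0.05 together with a log2 ratio of 0.5 or more in either direction. The standard error was derived from the F statistic. CPM used the TMM-scaled library sizes, and levels per kilobase used the union of GENCODE M21 exons, which matched 79 of 80 symbols (Il8 did not match). Alternatives were other normalizations and filters, DESeq2 1.42.0, a replicate block, a cell division score as covariate, each library left out, and both libraries numbered 1 left out. The scripts were tested on simulated data with known changes.

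Every gene with 10 or more reads in at least 3 libraries is named. Values in each library are given for interleukin and receptor genes that were called, did not overlap between groups, averaged 10 CPM or more, or changed by 1 or more on the log2 scale, and up to 4 genes of each further list are named where called or not overlapping; other genes named from those lists were chosen after their values were seen. The members and lists were chosen with earlier results of these data known. Results for a few listed genes are not reported here.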

Additional observations from a re-analysis of the deposited data

How the results depend on the processing

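Against 0 interleukin and receptor genes called over all 6 libraries, DESeq2 called 2, the covariate for cell division 8 and the 4 libraries without those numbered 1 called 13 (Il23a included). With any 1 library left out the count was 0 each time. Of the downstream and shared receptor genes, 1 was called over 6 libraries, against 7 by DESeq2, 0 with the replicate block and 11 with the covariate. It was 20 over 4 libraries (Nlrp3 and Csf1r included) and 0 to 2 with 1 library left out. Over all genes, 51 of 11974 were called over 6 libraries, 683 of 12934 by DESeq2 and 1445 of 11974 with the covariate. The 4 libraries gave 4854 of 12122, the replicate block gave 0, and the fits with 1 library left out gave 0 to 108. The count of interleukin and receptor genes whose groups did not overlap was 6, against 18 over 4 libraries and 7 to 12 with 1 library left out (12 without Ctl MSC 1 and 12 without MSC-TPr 1). Fewer libraries leave fewer chances to overlap. The share over all genes was not counted with fewer libraries, so these larger counts are not read as a result about the members. The cause of the other changes was not tested.

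Of the fold changes, those of Il1rl1 (0.14), Il1r1 (0.71), Il18rap (0.73), Il13ra1 (0.85), Il17rc (0.35), Il20rb (0.10) and Il1rn (2.82) reversed over 4 libraries. Il1rn, close to 0 in the test over 6, also reversed with no filter (0.013), with DESeq2 (0.006) and with the replicate block (1.33), Il13ra1 with the block (0.10), and Il15ra with the covariate (-0.40). With 1 library left out the log2 fold changes ran from -0.37 to 0.66 (Il13ra1), -0.06 to 0.82 (Il15ra), -0.13 to 0.30 (Il17ra), -0.30 to 0.16 (Il17rc), -0.80 to 0.26 (Il18rap), -0.69 to 0.35 (Il1r1), -0.51 to 2.36 (Il1rn) and -0.40 to 0.011 (Il20rb). Other normalizations changed no direction and no call among these genes, and with upper quartile scaling 7 genes did not overlap.

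Same-numbered libraries of both groups deviated in opposite directions (r = -0.779, -0.635 and -0.625 for numbers 1, 2 and 3), and 0 control libraries correlated best with their own number. Each deviation was taken from the mean of its own group, so the 3 values depend on one another and cannot decide whether numbers mark pairs. The numbers were not taken as pairs. With the replicate block, 0 interleukin and receptor genes and 0 of the downstream genes were called, and Irak3 had an adjusted p of 0.309 (edgeR). Genes near 10 reads, such as Il15 and Il23a, are limited by depth.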
